A study of Drosophila melanogaster with 9 samples.

Results

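Heat shock protein genes of the small, Hsp70 and Hsp90 families were examined in larvae of *Drosophila melanogaster* that carry an extra X chromosome. They are the small heat shock protein genes Hsp22, Hsp23, Hsp26, Hsp27, Hsp67Ba and Hsp67Bc, the Hsp70 family genes Hsp68, Hsc70-3 and Hsc70-4, and the Hsp90 gene Hsp83. They were taken as a named list of 10 of the 17714 genes that could be paired with counts, by a rule with no threshold on measured values. RNA of larvae at the third instar was sequenced from metafemales (XXX, 3 X chromosomes with a normal set of autosomes), normal diploid females (XX) and normal diploid males (XY), with 3 libraries in each group. Females and males were of the Canton S wild type. Metafemales were the progeny of Canton S males and females of the attached-X stock C(1)DX, ywf/winscy, picked by sex and the colour of the mouthparts. All stocks were kept at 25 °C and no heat treatment is named.

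The metafemales inherit one attached pair of X chromosomes and other material from the C(1)DX stock, which the Canton S controls lack. Strain and X chromosome number therefore cannot be told apart. Age within the instar and the tissues taken are not stated beyond the label of larvae, and the labels do not say whether the 3 libraries of a group came from separate cultures, so the p-values measure only the spread between these libraries. In RNA of mixed tissue, fewer cells of a type and less RNA per cell cannot be told apart either.

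Heat shock proteins are chaperones, which bind unfolded or partly folded proteins and keep them from clumping. Small heat shock proteins hold such proteins without using ATP, Hsp70 proteins bind and release them in cycles driven by ATP, and Hsp90 finishes the folding of signalling proteins such as kinases and steroid receptors. Heat induces most of these genes through the heat shock factor Hsf, but in *Drosophila* the small genes of the 67B cluster are also known as targets of the moulting hormone ecdysone late in larval life, and the Hsc70 genes are expressed without any stress.

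Each female library held 138223737 to 184268612 counts, each male library 130919406 to 177910781 and each metafemale library 139954374 to 168844124. A floor of 3 counts corresponded to 0.0163 to 0.0229 CPM, counts scaled to a library total of 1000000, and none of the 10 genes fell to it in any library. Counts given to assembled transcripts, which belong to no gene here, made up 13.4% of the library metafemale 1 and 24.6% to 32.6% of the other 8. Results that change without that library are given with and without it. Testis genes matched the labels, with a summed level of 152 to 243 CPM in males, 6.84 to 7.48 CPM in females and 2.96 to 6.42 CPM in metafemales.

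The levels of the 10 genes spanned more than 3 orders of magnitude. Per kilobase of transcript, the mean level in females was 765 ± 102.3 CPM per kb (SD, n = 3) for Hsc70-4, the main cytosolic Hsp70 of unstressed cells, and 0.326 ± 0.453 CPM per kb for Hsp22, a small heat shock protein of the mitochondrial matrix, a ratio of 2347. Between them stood Hsp23 at 607 ± 248, Hsp83 at 295 ± 15.5, Hsc70-3 (the Hsp70 of the endoplasmic reticulum, BiP) at 111 ± 7.90, Hsp27 at 16.5 ± 3.48, Hsp26 at 12.3 ± 12.7, Hsp67Bc at 7.87 ± 3.25, Hsp67Ba at 4.80 ± 0.563 and Hsp68 at 2.09 ± 0.548 CPM per kb. The ranges of Hsc70-4 and Hsp23, of Hsp27 and Hsp26, and of Hsp26 and Hsp67Bc overlapped, and all other neighbours in the female order were apart.

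In metafemales the order differed and the span was 454. Hsc70-4 remained first at 734 ± 23.2 CPM per kb, and Hsp83 came next at 180 ± 16.8. Hsp23, among the first 2 in both control groups, had number 4 in the order of means, at 86.0 ± 70.9 CPM per kb. The Hsp23 range, 33.7 to 167, overlapped with that of Hsc70-3 at 128 to 156, so that pair could not be ordered. It also just reached that of Hsp83, which started at 166. Hsp22 stood at 3.27 ± 2.38 CPM per kb and overlapped in range with Hsp27 at 3.97 ± 1.14 and Hsp26 at 2.57 ± 1.56. In males Hsp23 at 703 ± 426 and Hsc70-4 at 701 ± 109 CPM per kb could not be ordered, and Hsp26 reached 36.9 ± 11.9 CPM per kb.

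**Figure D1:**
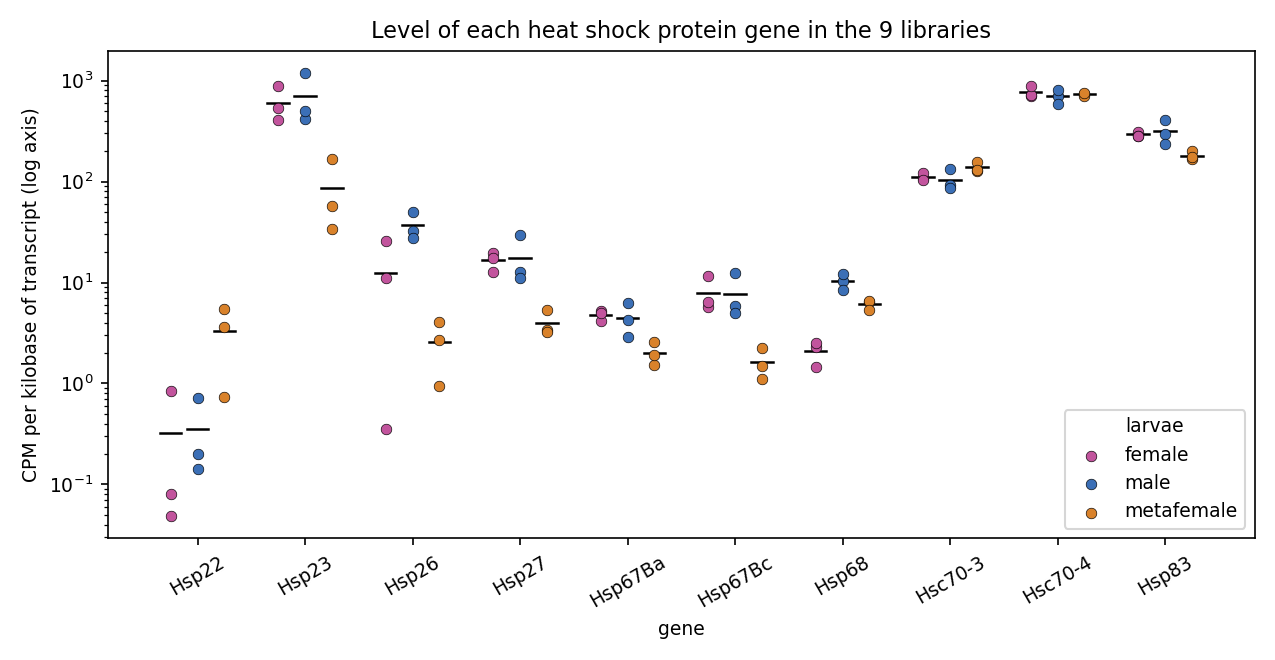
Level of each of the 10 genes in CPM per kilobase of transcript on a log axis, 1 point for each library and a bar at the mean of the 3 libraries of a group. Metafemale points lie below both control groups for Hsp23, Hsp27, Hsp67Ba, Hsp67Bc and Hsp83, while Hsc70-4 is level at means of 701 to 765 CPM per kb.

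The comparison of metafemales with females asks what the extra X chromosome goes with in larvae of female sex. The 5 genes lower in metafemales were Hsp23, Hsp27, Hsp67Ba and Hsp67Bc of the 67B cluster, and Hsp83. The fold changes of the small genes lay between 2.34 and 6.78, and that of Hsp83 was 1.61. Hsp68, a heat-inducible Hsp70, was 2.93-fold higher and Hsp22 was 9.55-fold higher. Hsp26, Hsc70-3 and Hsc70-4 did not pass the test, which was an adjusted p below 0.05 in edgeR's quasi-likelihood test. Thus 7 of 10 genes passed, against 38.6% of the 11995 genes tested. Of them, 2 were higher and 5 lower, where 20.6% of all genes were higher and 18.0% lower. Of the 7, 6 also had a log2 fold change above 1 in size, against 14.6% of all genes. Of the 10, 7 had (Hsc70-3 among them, but not Hsp22) libraries that did not overlap between the groups, against 50.6%. The Hsc70-3 groups did overlap with CPM over annotated genes only.

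Hsp23, a small heat shock protein found at high level in late larvae, was measured at 344, 750 and 451 CPM in females 1 to 3 and at 28.6, 48.9 and 142 CPM in metafemales 1 to 3. Every metafemale library lay below every female library, and metafemale 3 was the closest to them. On the log2 scale the difference was -2.76 ± 0.65 (SE, edgeR's quasi-likelihood test, adjusted p = 0.0167). It ran from -3.68 without metafemale 3 to -2.35 without metafemale 1, and the adjusted p was 0.0648 without metafemale 2.

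Hsp27, which in *Drosophila* is present in cytoplasm and nucleus, stood at 15.5, 23.7 and 21.4 CPM in females and at 4.83, 4.01 and 6.46 CPM in metafemales. The groups were apart and each was narrow, so that Hsp27 had the smallest p of the 10 genes in this comparison (log2 fold change -1.96 ± 0.22, edgeR, adjusted p = 0.00142). Hsp67Bc, a partner of the co-chaperone stv in autophagy of damaged proteins, was at 5.58, 11.5 and 6.28 CPM in females and 1.09, 1.48 and 2.21 CPM in metafemales, again without overlap. Its log2 fold change was -2.24 ± 0.39 (edgeR, adjusted p = 0.00571). Metafemale 1 differed in the transcript of Hsp27 it was given, with 56.5% of the counts (382) under the RB form, which runs 412 bases past RA at the 3′ end, against 0.825% to 5.94% in the other metafemales and at most 2.18% in the controls.

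Hsp67Ba, a less studied gene of the cluster, was measured at 7.24, 9.13 and 8.59 CPM in females and 2.62, 3.32 and 4.45 CPM in metafemales. The groups did not overlap and the log2 fold change was -1.22 ± 0.24 (edgeR, adjusted p = 0.00868). An annotated antisense RNA, CR43481, shares 1316 bases with the Hsp67Ba exon, and since the sources used here do not say that counting used strand, reads of the pair cannot be told apart. That antisense RNA itself was given 0 counts in all metafemales and 0 to 45 in females, against 1188 to 1370 counts for Hsp67Ba in females.

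**Figure D2:**
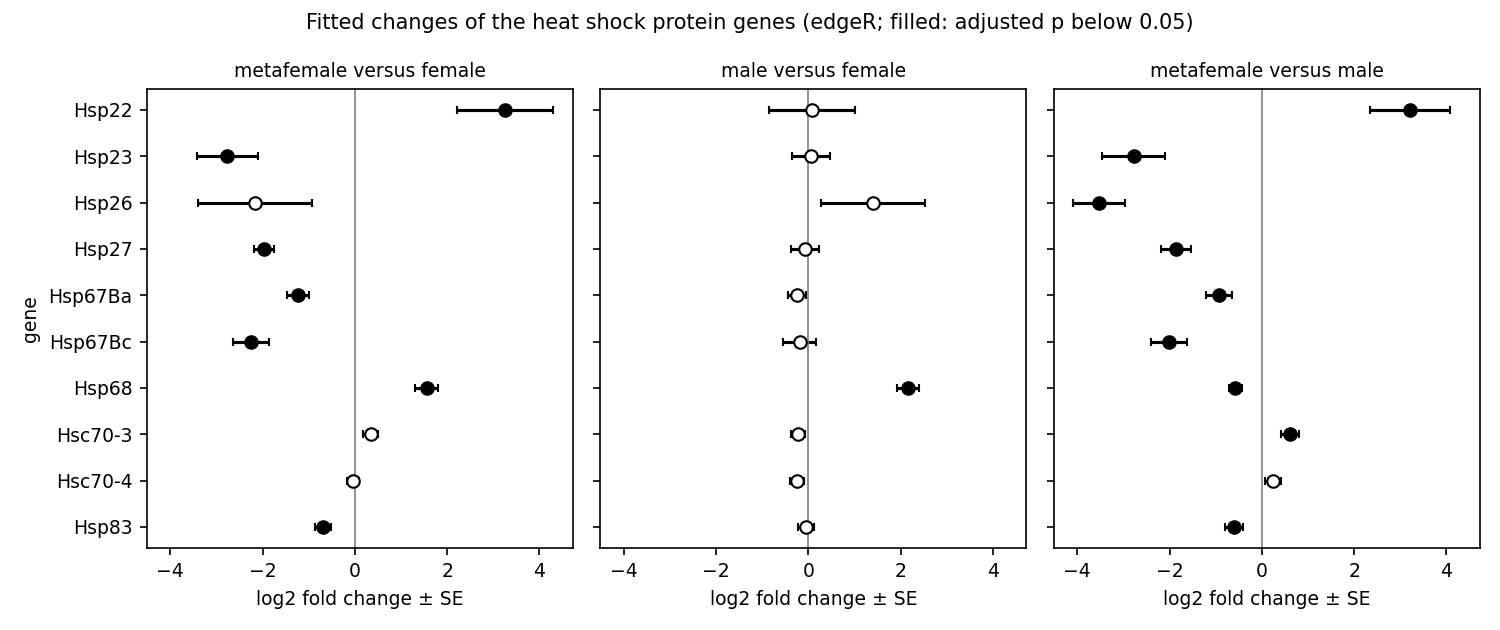
Log2 fold change with its standard error for the 10 genes in each of the 3 comparisons, from edgeR. Filled points passed at an adjusted p below 0.05, which were 7 genes for metafemales against females, 1 for males against females and 9 for metafemales against males.

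Hsp22 was the exception among the small genes. Its level was 0.0868, 0.147 and 0.868 CPM in females (16, 22 and 120 counts) and 0.750, 3.50 and 5.31 CPM in metafemales (105, 588 and 896 counts). Metafemales 2 and 3 lay above all females, but metafemale 1 lay below female 3, so the groups overlapped. The log2 fold change of 3.25 ± 1.05 had an adjusted p of 0.0472 in edgeR, close to the threshold. The adjusted p was 0.105 without female 1, 0.125 without female 2, 0.106 without metafemale 2 and 0.121 without metafemale 3, and the log2 fold change reached 4.82 without female 3.

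The annotation places Hsp22 in a transcription unit shared with CG4456, known also as Hsp67Bb, a further gene of the small heat shock cluster. Of the annotated transcripts of Hsp22, the RA form of 1900 bases spans both genes, while the RB form of 968 bases starts 1066 bases downstream and covers only the Hsp22 end. The metafemale counts were almost wholly of RB, with 95, 585 and 893 counts in metafemales 1 to 3 against 1, 1 and 107 in females. The RA form had 10, 3 and 3 counts in metafemales and 15, 21 and 13 in females. Since Hsp22-RA has the same exons as a transcript of CG4456, the division of reads between these genes is uncertain. CG4456 itself had 1025, 760 and 796 counts in females and 944, 1185 and 1164 in metafemales, with a log2 fold change of 0.36 (edgeR, adjusted p = 0.0739). The sum of both genes was 5.65, 5.21 and 6.63 CPM in females and 7.50, 10.6 and 12.2 CPM in metafemales, and there the groups did not overlap.

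Hsp26, a small heat shock protein also known from the germ line, was at 0.347, 25.9 and 11.1 CPM in females and at 0.950, 2.74 and 4.09 CPM in metafemales. Female 1, with 64 counts, lay far below females 2 and 3, with 3885 and 1537 counts, and below all metafemales. The log2 fold change of -2.17 ± 1.24 did not pass (edgeR, adjusted p = 0.207). Without female 1 it was -2.72 and passed (adjusted p = 0.0322), and without female 2 it was -0.98.

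The annotated transcripts of Hsp26 differ only at the 5′ end, where RB starts 52 bases upstream of RA. Males were given 4175, 8567 and 3472 counts of RA and 3 to 5 of RB, whereas females 2 and 3 and all metafemales were given RB alone. Female 1 was given 32 counts of each. The forms share nearly all their bases and their counts are estimates, so the split is given as a description of what was deposited, and only the gene's sum was tested.

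**Figure D3:**
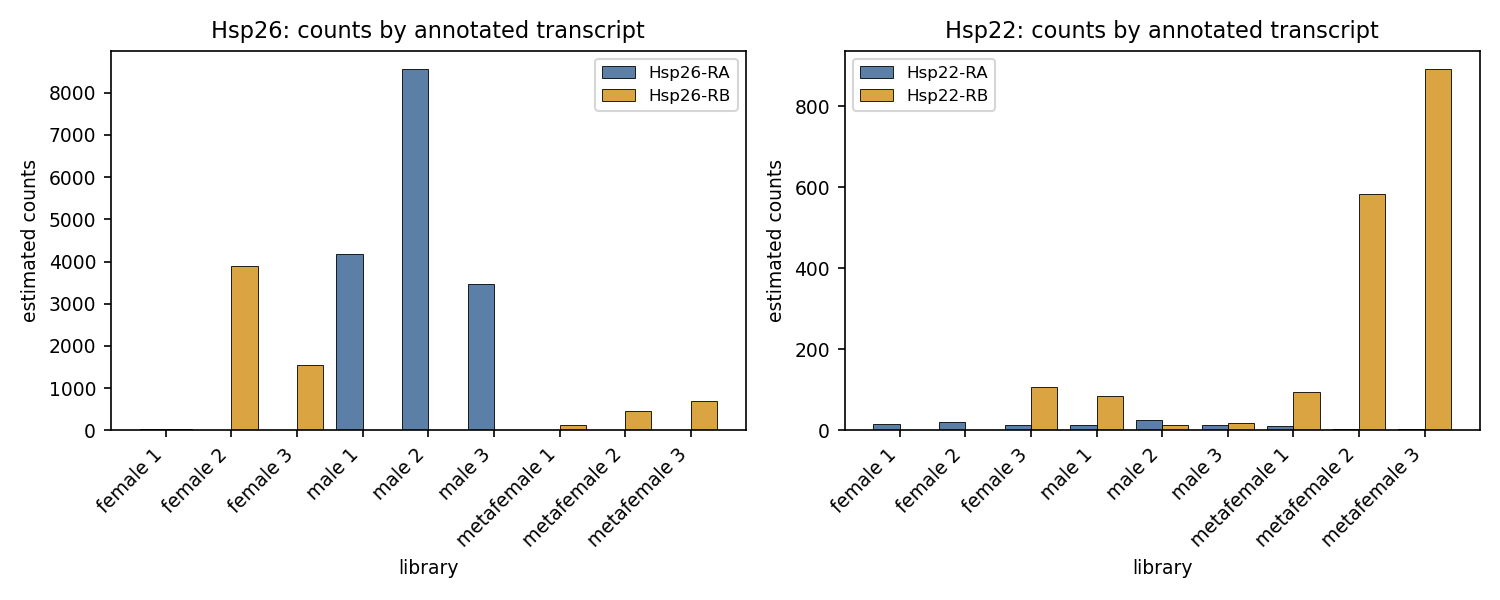
Estimated counts of each annotated transcript of Hsp26 (left) and Hsp22 (right) in the 9 libraries, on linear axes that start at 0. Hsp26 counts stand under RA in males and under RB in metafemales and in females 2 and 3, and Hsp22-RB reaches 585 and 893 counts in metafemales 2 and 3.

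All 6 small genes lie within 14.2 kb on chromosome arm 3L (BDGP6, chr3L:9371511-9385694), in the order Hsp67Bc, Hsp22, Hsp26, Hsp67Ba, Hsp23 and Hsp27. Hsp67Bc, Hsp26 and Hsp67Ba are read from the minus strand and the other 3 from the plus strand. Genes of both strands were among those that fell. The pseudogene CR43483, which overlaps the end of Hsp27 by 49 bases on the opposite strand and lies mostly beyond the cluster, had a log2 fold change of -1.11 (edgeR, adjusted p = 0.0157). In the 50 kb on either side, 26 genes were tested, this one included, with a median log2 fold change of -0.20. Of these, 5 were higher, 10 lower and 11 did not pass, beside 20.6% higher and 18.0% lower among all genes tested. The lowest of these neighbours was the pseudogene CR43482 beside Hsp27, at -1.54 (edgeR, adjusted p = 0.0159). The median over the 6 small members was -2.06, and over all genes tested it was -0.03.

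**Figure D4:**
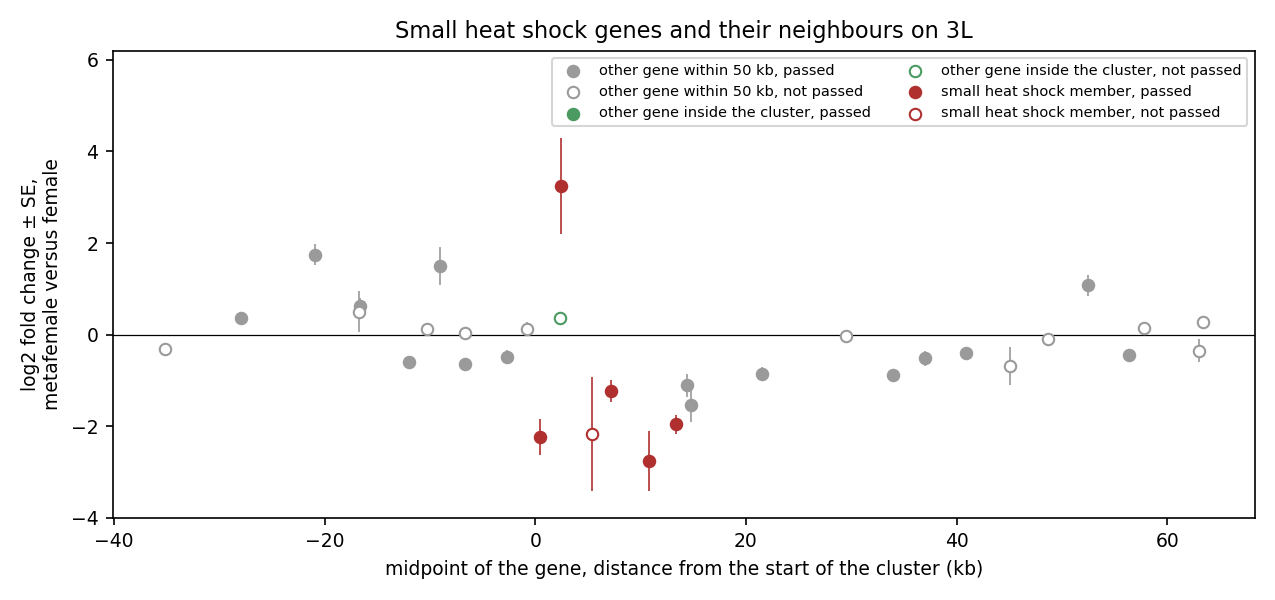
Log2 fold change of metafemales against females with its standard error, for the 6 small heat shock genes and the other tested genes within 50 kb, by distance of the gene's midpoint from the start of the 14.2 kb cluster. Filled points passed in edgeR. Within the cluster the points fall between -1.22 and -2.76 except Hsp22 at 3.25 and CG4456 at 0.36.

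Among the larger chaperones, Hsp68 was at 5.14, 5.56 and 3.26 CPM in females and at 14.3, 14.5 and 12.0 CPM in metafemales. The groups were far apart and the metafemale libraries were close to each other. Fitted in edgeR, the log2 fold change was 1.55 ± 0.25 (adjusted p = 0.00409). Hsp68 has 1 annotated transcript, on chromosome 3R (BDGP6, chr3R:24055080-24057310), and shares 13 bases with genes on the opposite strand, as Hsp83 shares 15.

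Hsp83, the cytosolic Hsp90, was at 848, 775 and 775 CPM in females and at 449, 539 and 480 CPM in metafemales, without overlap. Its log2 fold change was -0.69 ± 0.17 (edgeR, adjusted p = 0.0192). The adjusted p rose to 0.0668 without female 1, 0.0553 without female 2 and 0.0575 without metafemale 3, with log2 fold changes of -0.56 to -0.83 over the 6 fits that each left out 1 library.

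Hsc70-3 is the only one of the 10 genes on the X chromosome, and so the only one present in 3 copies in metafemales. It was at 338, 371 and 323 CPM in females and at 396, 482 and 407 CPM in metafemales. The groups did not overlap on this scale, but the log2 fold change of 0.34 ± 0.17 did not pass (edgeR, adjusted p = 0.149). With CPM over annotated genes only, metafemale 1 at 458 lay below females 1 and 2 at 493 and 510, so the groups overlapped. The fold of 1.27 stood beside a median fold of 1.35 over the 1924 X-linked genes tested. The RB form of Hsc70-3 took 59.5% to 62.3% of its counts in metafemales, 47.4% to 53.0% in females and 47.5% to 56.8% in males. These shares of estimated counts in metafemales lay above those of all other libraries and were not tested.

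Hsc70-4 had the log2 fold change nearest to 0. It was at 1656, 1689 and 2091 CPM in females and at 1753, 1676 and 1783 CPM in metafemales, which lay inside the female range. With a log2 fold change of -0.04 ± 0.12 it did not pass (edgeR, adjusted p = 0.833). The RA form held 97.7% to 99.1% of the Hsc70-4 counts in every library.

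The controls were themselves uneven for the small genes. Female 2 and male 2 had the highest Hsp23, Hsp26, Hsp27, Hsp67Ba and Hsp67Bc of their groups, with 750 and 1012 CPM of Hsp23. They also had the highest summed level of 12 ecdysone response genes. The sum was 3107 CPM in female 2, against 2149 and 2463 CPM in females 1 and 3. In male 2 it was 3828 CPM, against 2023 and 1292 CPM in males 1 and 3. Its largest parts were the genes br and EcR, at means of 1147 and 554 CPM in females and 1063 and 539 CPM in males. Of the 10 genes, 7 were highest in female 2, as were 32.0% of all genes tested, and 9 were highest in male 2, as were 65.1%, so most genes ran high in male 2. In metafemales the ecdysone sum was 1645, 995 and 1186 CPM, and none of the 10 genes was highest in metafemale 1, which had the highest sum and in which 59.1% of all genes were highest. EcR and br, the largest parts of the sum, were highest in metafemale 1, as were usp, Eip74EF, Eip75B, MsrA and Hr3. Hr4, Eip78C, ImpE1, ImpE2 and ImpL2 were instead highest in metafemale 3, as were all the small heat shock members.

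Several marker lists moved with the small genes between the groups. Of the 12 ecdysone response genes, 7 were lower in metafemales than in females, 5 did not pass and none was higher. Among all genes, 18.0% were lower and 20.6% higher. The median log2 fold change of the list was -1.58. Hr4, Eip78C and ImpE1, which respond to the hormone, had -5.41, -3.49 and -3.08. MsrA and ImpL2 of the same list differed little, with means of 162 and 28.7 CPM in metafemales and 156 and 29.6 CPM in females. All 7 salivary gland glue genes, which larvae express in the last part of the instar, were lower in metafemales, with sums of 943 to 1946 CPM against 6381 to 7947 CPM in females and 7170 to 9816 CPM in males. All 8 larval muscle genes were higher, with sums of 27267 to 42525 CPM against 12346 to 18606 CPM in females and 10205 to 24676 CPM in males. Of the midgut genes 5 of 8 were higher (sums of 9230 to 11108 CPM, against 5548 to 6886 CPM in females and 4167 to 6691 CPM in males). Of the fat body genes 3 of 6 were lower (35314 to 45674 CPM, against 42989 to 55560 and 33014 to 43032 CPM). Of the blood cell genes 1 of 6 was higher and 1 lower (876 to 1277 CPM, against 428 to 776 and 357 to 585 CPM). No marker gene of these 5 tissue lists was at 0 in any library. The part of these lists in the results for the heat shock genes was not tested.

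**Figure D5:**
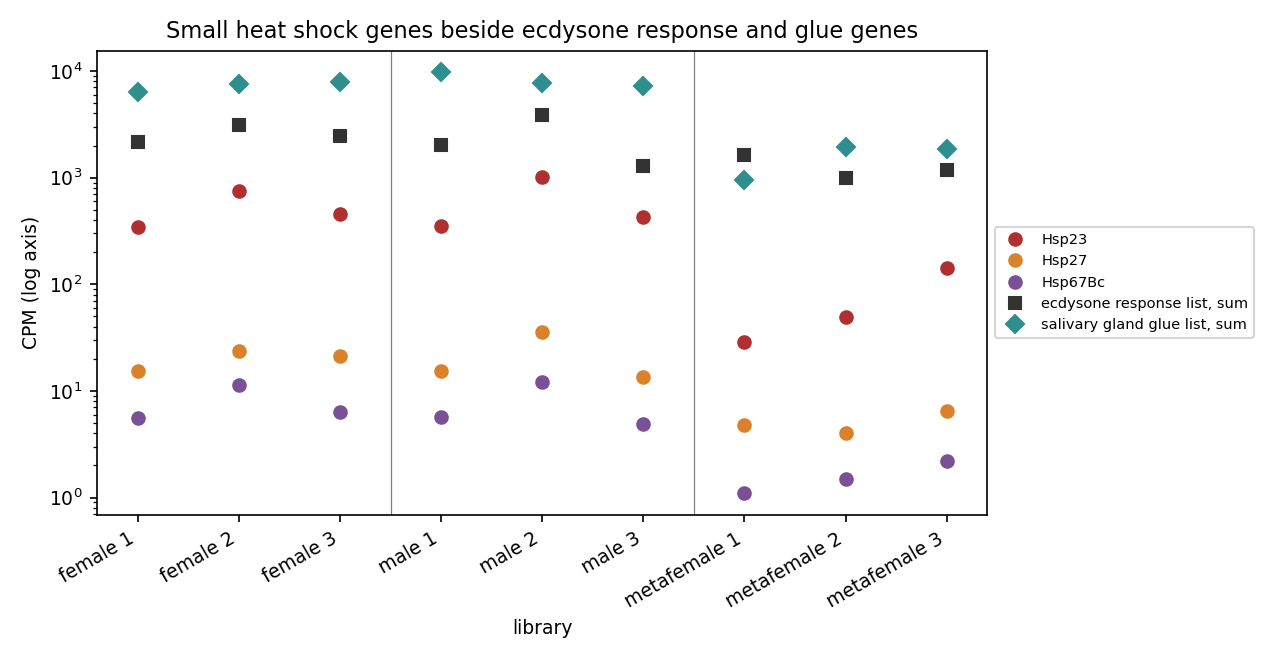
CPM of Hsp23, Hsp27 and Hsp67Bc (circles) and summed CPM of the ecdysone response list (12 genes, squares) and the salivary gland glue list (7 genes, diamonds) in each of the 9 libraries on a log axis. Female 2 and male 2 are the highest of their groups for the 3 genes and the ecdysone list, and the glue sum is 943 to 1946 CPM in metafemales against 6381 CPM or more elsewhere.

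The comparison of males with females asks how the same genes differ between the sexes with 1 and 2 X chromosomes. Hsp68 was the single gene of the 10 that passed, 4.48-fold higher in males. It had 3063, 4778 and 2457 counts in males 1 to 3 and 947, 834 and 451 in females 1 to 3, or 18.8 to 26.9 CPM against 3.26 to 5.56 CPM. Every male library lay far above every female library. In log2 units the difference was 2.16 ± 0.24 (edgeR's quasi-likelihood test, adjusted p = 0.00064). Beside this 1 of 10, 20.8% of all 13700 genes tested passed, 19.5% higher in males and 1.28% lower.

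Hsp26 was at 31.4, 48.2 and 26.5 CPM in males, above every female library, yet its log2 fold change of 1.41 ± 1.13 did not pass (edgeR, adjusted p = 0.528). Hsp68 and Hsp26 were the 2 genes whose libraries did not overlap, against 29.2% of all genes. The other 8 had log2 fold changes between -0.25 and 0.07 with adjusted p-values of 0.421 or more, and their groups overlapped. The standard errors were widest for Hsp26, Hsp22 at 0.93 and Hsp23 at 0.41.

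Hsc70-3, with 1 copy in males and 2 in females, was at 283, 414 and 265 CPM in males against 323 to 371 CPM in females. The log2 fold change was -0.23 ± 0.15 (edgeR, adjusted p = 0.427). A minor form of Hsp83, RB, had 358, 756 and 273 counts in males, 18 to 25 in females and 22 to 90 in metafemales, at most 0.380% of the gene's counts. Testis genes, all 12 of which were higher in males, moved with Hsp68 and this form in this comparison. In metafemales, where Hsp68 was 2.93-fold higher than in females, their sum was 2.96 to 6.42 CPM, against 6.84 to 7.48 CPM in females. The part of testis genes in these results was not tested.

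Metafemales and males differ in sex as well as in X chromosome number, and this comparison uses the same metafemale libraries as the first and the same male libraries as the second. Hsp23, Hsp26, Hsp27, Hsp67Ba, Hsp67Bc, Hsp68 and Hsp83 were lower in metafemales than in males and Hsp22 and Hsc70-3 were higher. Hsc70-4 did not pass. The 7 lower genes stood beside 29.0% of the 13814 genes tested, the 2 higher beside 16.8%, and 45.8% of all genes passed in either direction. Among the 10, 5 had a log2 fold change above 1 in size, against 30.8% of all genes, and 8 had libraries that did not overlap, against 55.4%.

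Hsp26 showed the largest fall of the 10 here, 11.5-fold, from 26.5 to 48.2 CPM in males to 0.950 to 4.09 CPM in metafemales (log2 fold change -3.53 ± 0.56, edgeR, adjusted p = 0.00258). The result passed in each of the 6 fits that left out 1 library. Hsp23 fell 6.86-fold (-2.78 ± 0.69, adjusted p = 0.0163), Hsp67Bc 4.03-fold (-2.01 ± 0.38, adjusted p = 0.0056) and Hsp27 3.61-fold (-1.85 ± 0.33, adjusted p = 0.0042) in the same edgeR fit. The adjusted p of Hsp23 was 0.0622 without metafemale 2, and its log2 fold change was -3.66 without metafemale 3.

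Hsp68 in metafemales, at 12.0 to 14.5 CPM, lay below all males at 18.8 to 26.9 CPM and above all females. The fall from males was 0.57 on the log2 scale (SE 0.14, edgeR, adjusted p = 0.014), and the adjusted p was 0.0593 without metafemale 1 and 0.0661 without metafemale 3. Hsc70-3 was 1.53-fold higher in metafemales, where 3 copies stand against 1, with a log2 fold change of 0.61 ± 0.20 (edgeR, adjusted p = 0.0437). The metafemale libraries at 396 to 482 CPM overlapped with male 2 at 414 CPM. The median fold of all X-linked genes in this comparison was 1.43.

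Hsp22 was higher than in males by 3.22 ± 0.87 on the log2 scale (edgeR, adjusted p = 0.0227), Hsp67Ba was lower by 1.91-fold (adjusted p = 0.0338) and Hsp83 by 1.52-fold (adjusted p = 0.047). These 3 calls and that of Hsc70-3 were each lost on leaving out any of several libraries, while the direction of change stayed the same. Hsp22 lost its call without male 2 (adjusted p = 0.0547), male 3 (0.0688), metafemale 2 (0.0582) or metafemale 3 (0.065), and Hsp67Ba without male 1 (0.0798), male 2 (0.078), metafemale 1 (0.0705) or metafemale 2 (0.0873). Hsc70-3 lost its call without male 1 (0.15), male 3 (0.0727), metafemale 2 (0.112) or metafemale 3 (0.0789). Hsp83 passed in none of the 6 fits that left out 1 library, with adjusted p-values of 0.0533 to 0.142. Without metafemale 1, 4 genes were lower in place of 7.

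Of 69 other chaperone and co-chaperone genes that were matched, 63 were tested between metafemales and females. Of these, 11 were higher, 5 were lower and 47 did not pass, beside 20.6% higher and 18.0% lower among all genes. The 6 inducible Hsp70 genes did not pass in edgeR, the lowest adjusted p being 0.0888 for Hsp70Bb (unadjusted p = 0.0414), with a median log2 fold change of 0.66, and their summed level was 3.78 to 9.54 CPM in metafemales and 2.61 to 8.10 CPM in females. These copies are nearly identical, so the division of reads among them is uncertain. Hsf, the transcription factor of the heat shock response, was lower by 1.21-fold (edgeR, adjusted p = 0.0401), from 20.3 to 24.8 CPM in females to 17.7 to 19.6 CPM in metafemales, and stv, the co-chaperone named with Hsp67Bc, was 1.72-fold higher (adjusted p = 0.00393).

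Outside the 67B cluster, the small heat shock genes that fell had smaller fold changes. Of the 5 other genes listed with them and tested, CG4456 lies inside the cluster and did not pass. Outside it, l(2)efl, a small heat shock gene of muscle, was lower by 1.66-fold (edgeR, adjusted p = 0.0109). CG14207 on the X chromosome was lower by 1.86-fold (adjusted p = 0.0078). CG14207 was far the more abundant, at 966 to 1337 CPM in females and 551 to 607 CPM in metafemales, without overlap. Among co-chaperones, Stip1, which links Hsp70 and Hsp90, was lower by 1.42-fold (adjusted p = 0.0144) and STUB1, a ubiquitin ligase that works with Hsp70, by 1.32-fold (adjusted p = 0.0147), while HIP was 1.53-fold higher (adjusted p = 0.00711).

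Hsp60A, the mitochondrial chaperonin, was at 107 to 116 CPM in females and 210 to 259 CPM in metafemales, a 2.12-fold rise (edgeR, adjusted p = 0.00289). In the endoplasmic reticulum, where Hsc70-3 acts, 5 of 20 genes were higher, beside 20.6% of all genes tested, and none was lower. They included Herp of protein degradation (2.06-fold, adjusted p = 0.000954), the Hsp70 relative Grp170 (1.55-fold, adjusted p = 0.00682), the oxidase Ero1L (1.54-fold, adjusted p = 0.00706) and the disulfide isomerase Pdi (1.42-fold, adjusted p = 0.0231). Of the 8 subunits of the cytosolic chaperonin, CCT2 and CCT6 were higher, by 1.29-fold and 1.38-fold, and 6 did not pass.

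By chromosome, the count of higher genes divided unevenly, as it did over all genes. Of the 8 other chaperone genes tested on the X chromosome, 5 were higher in metafemales (Hsp60A, CCT2, CCT6, HIP and Grp170) and 1 was lower, against 42.9% and 3.64% of all X-linked genes. Of the 55 on the large autosomes, 6 were higher and 4 were lower, against 16.4% and 20.9% of all genes there. The median fold of these 55 chaperone genes was 1.09, and that of all genes tested on the large autosomes was 0.917.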

How the data were processed

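RNA from larvae, with ribosomal RNA removed, was sequenced as paired reads by the authors, who per the submitters' processing notes used CASAVA, Trimmomatic, HISAT2 and StringTie on the BDGP6 build. The authors deposited one table of expected counts (estimated counts) per transcript for the 9 libraries, in which the values are whole numbers that had not been normalized. An estimated count divides the reads of shared exons between transcripts, so single transcripts are less certain than gene sums. Whether counting used strand is not given in the sources used here.

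Of 42937 transcripts, 34750 found a gene in the BDGP6 annotation of Ensembl release 115 and were summed to 17714 genes, 169 FlyBase transcripts were unpaired, and 8017 assembled transcripts counted only toward totals. Unpaired entries held at most 0.115% of a library. CPM used the total of the whole table, and CPM per kb the length of each transcript. On the 6 libraries of each comparison, edgeR 4.0.16 in R 4.3.3 gave the test, with TMM scaling, the filterByExpr filter and a quasi-likelihood fit, and p-values were adjusted by Benjamini-Hochberg across every gene in the fit. A gene passed at an adjusted p below 0.05. SE is the log2 fold change divided by the square root of F. On simulated data for metafemales against females, 200 genes were given a log2 difference of 2, and all genes were drawn with the same dispersion. Here a gene counted only at an adjusted p below 0.05 with a log2 fold change above 1 in size. Of the 200, 196 were tested and 193 (96.5% of the 200) were recovered, with 5 other calls among 12062 genes tested. False calls at an adjusted p below 0.05 alone were not counted. Since the simulation left out differences in spread between genes, it does not give the recovery for variable genes such as Hsp22 and Hsp26. Intervals, floors and SEs cover these libraries only.

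All 10 genes are named in each comparison. Of each other chaperone list, up to 4 genes that passed between metafemales and females are named by lowest adjusted p, with genes that overlap a member. The neighbours of the 67B cluster, the marker genes named and the transcripts described were chosen after their values were seen. The genes and lists were chosen with earlier results of these data known. One listed gene of 144 was not matched. The alternatives were DESeq2 1.42.0, other scalings and filters, all 9 libraries in one fit, the replicate number as a block, each library left out in turn and CPM over annotated genes. Levels and plots were made with pandas 2.3.3, numpy 2.4.6 and matplotlib 3.10.9 under Python 3.11.15.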

Additional observations from a re-analysis of the deposited data

How the results depend on the processing

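Between metafemales and females, the count of heat shock genes that were higher was 1 in place of 2 with plain column totals, with no filter on low counts and with all 9 libraries in one fit, where the adjusted p of Hsp22 was 0.0513, 0.0631 and 0.0501. Leaving out 1 library gave 1 to 2 higher genes, and Hsc70-4 changed sign, at -0.0747 to 0.0425. Between males and females, Hsp27 was at 0.10 and Hsp83 at 0.0948 with plain column totals, and Hsp83 at 0.00022 with at least 10 counts in every library. Leaving out 1 library gave -0.70 to 1.64 for Hsp22, -0.37 to 0.41 for Hsp23, -0.47 to 0.12 for Hsp27, -0.54 to 0.18 for Hsp67Bc and -0.154 to 0.0404 for Hsp83, none of which passed. With at least 10 counts, 735 of 11041 genes tested passed between males and females, in place of 2853 of 13700. Between metafemales and males, 4074 of 10970 passed, in place of 6321 of 13814. In the latter comparison 1 heat shock gene was higher with plain column totals and with at least 10 counts, and leaving out 1 library gave 0 to 2 higher, 4 to 6 lower and 3 to 5 past a log2 fold change of 1. Plain column totals moved the median of all genes from 0.01 to 0.12 for males against females and from -0.13 to -0.31 for metafemales against males. The ratio of mean Hsc70-4 in metafemales to females was 0.959, and 0.882 with CPM over annotated genes only. The cause of these changes was not tested.

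Libraries with the same number did not deviate together in all pairs (correlations of -0.17 to 0.14), so the number was not taken as a pairing. With the replicate number as a block, 2 heat shock genes were higher and 5 lower between metafemales and females, as without it, while 0 were higher and 4 lower between metafemales and males.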

Other observations

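Some chaperone genes were found almost only in males. Hsp60C, Hsp60B, Hsp60D and CG9920, paralogues of the mitochondrial chaperonins Hsp60A and Hsp10, had 4700 to 16129, 1396 to 3917, 876 to 1847 and 4474 to 13352 counts in the male libraries and 0 to 10 counts in every female and metafemale library. Hsc70-1 and Hsc70-2, Hsp70 relatives of the heat-independent kind, were at 2.90 to 6.52 and 3.62 to 10.1 CPM in males. In females they were at 0.0145 to 0.0326 and 0.116 to 0.180 CPM. All 6 were higher in males than in females in edgeR, with adjusted p-values of 6.32e-05 to 0.000242. Testis genes moved with them, and their part in it was not tested. Hsc70-1 was also higher in metafemales than in females, with 25 to 35 counts against 2 to 6 (log2 fold change 2.85, edgeR, adjusted p = 0.0056).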
